A study of Mus musculus with 9 samples.

Results

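The genes described here build or restrain bone mineral. They are phosphatases, phosphate transporters and matrix proteins, 9 named genes in all: Alpl, Phospho1, Smpd3, Enpp1, Slc20a1, Slc20a2, Xpr1, Mgp and Sparc. A gene was taken as measured when at least 1 probe set of the array was annotated to it alone, and its brightest probe set over the 9 arrays stood for it. By that rule 7 of the 9 were measured, of 18194 genes in all. Enpp1 had no probe set of its own, and the only probe set naming Phospho1 also names Zfp652, so neither has a value here.

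RNA came from tibial shafts of wild-type CD1 mice aged 16 to 18 weeks, with 3 Affymetrix mouse expression arrays in each of 3 groups. The groups were virgin mice, mice killed on day 12 of lactation, and post-lactation mice killed 7 days after their pups were taken away on lactation day 12. Litters were held at 8 to 13 pups. Groups were taken from the titles, although a second label calls the post-lactation arrays virgin. The shafts were cleared of periosteum and marrow and stripped of surface cells by repeated enzyme digestion, and the titles call the samples osteocytes. The extraction text names femurs once. No label says whether each array was a separate mouse, and p-values therefore measure the spread between these samples.

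Bone mineral forms when phosphate outweighs pyrophosphate, which blocks crystal growth. Alkaline phosphatase removes pyrophosphate, PHOSPHO1 frees phosphate from phosphocholine inside matrix vesicles, and the sphingomyelinase encoded by Smpd3 supplies that phosphocholine. ENPP1 makes pyrophosphate and the transporter encoded by Ank releases its precursor. The sodium-phosphate importers encoded by Slc20a1 and Slc20a2 and the exporter encoded by Xpr1 move phosphate across the cell membrane, matrix Gla protein restrains mineral, and osteonectin, the product of Sparc, binds collagen and mineral.

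The arrays fell into 3 sets, each with 1 array of every group. No label names these sets, which were inferred from exactly equal values between arrays. Virgin 1 shared set 1 with lactation 3 and post-lactation 1. Set 2 consisted of virgin 2 together with lactation 2 and post-lactation 3, and the remaining arrays (virgin 3, lactation 1, post-lactation 2) were set 3. Array medians ran from 4.32 to 4.82 on the log2 scale, so differences of the 7 genes are also shown set by set, with p from a fit that blocks on the set. Of 10 osteocyte markers 9 lay above 4.87, the 40th percentile of gene means used as a low-signal limit. All 9 red cell, 9 neutrophil and 9 B lymphocyte markers lay above it too, so this does not set osteocytes apart. Neutrophil markers averaged 7.65 to 8.57 log2 units above the array median. Virgin 1 stood apart. Its Sost signal, the osteocyte Wnt inhibitor, was 8.14, against 11.59 to 13.55 on the other 8 arrays, and its osteocyte marker mean was 3.17 log2 units above the array median, against 4.47 to 5.53 on the others. For the brightest probe set of each of the 7 genes, differences against virgin are given with and without virgin 1. Unless the block is named, a difference without virgin 1 is one of group means. It keeps lactation 3 or post-lactation 1 of set 1 without their virgin array, so it mixes in differences between sets. Red cell markers also differed between groups: their mean above the array median was 3.32 to 4.31 in virgin, 4.73 to 5.21 in lactation and 0.52 to 1.42 in post-lactation arrays, and all 9 had a lower post-lactation mean than in lactation and than in virgin mice. At the threshold given in the next paragraph 9 of 9 passed against lactation and 6 of 9 against virgin. Slc4a1, the red cell anion exchanger, was at 5.96 to 7.31 on post-lactation arrays, against 10.67 to 12.71 on the others. In whole shafts, fewer cells of a type and less RNA per cell cannot be told apart.

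None of the 7 genes passed the threshold in any of the 3 comparisons, which was an adjusted p under 0.05 over all 18194 genes by limma. In lactation versus virgin 0 of 7 were called, where 0% of all genes were, and 0 of 7 with the array set as a block, where 0.022% were. In post-lactation versus lactation 0 of 7 were called by either fit, with 0.709% of all genes called and 3.53% with the block. In post-lactation versus virgin it was again 0 of 7, with 0.176% and 0.451% of all genes. At an unadjusted p under 0.05 limma counted 0, 1 and 1 of the 7 in these comparisons, and 1, 2 and 2 with the block. The unadjusted shares among all genes were 1.8%, 5.06% and 2.09%, and 8.01%, 15.1% and 8.11% with the block. With 3 arrays a group the intervals below are wide, and a difference that missed the threshold is not shown to be absent.

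Slc20a2, the gene of the phosphate importer PiT-2, had the smallest p of the 7, after weaning. Its log2 signal on probe set 1434235_at was 6.20, 6.47 and 7.25 in virgin arrays 1 to 3, 6.98, 7.34 and 7.37 in lactation arrays and 8.34, 8.04 and 8.28 in post-lactation arrays. Every post-lactation array lay above every lactation and every virgin array, while lactation and virgin arrays overlapped. Group means were 6.64 ± 0.55 in virgin, 7.23 ± 0.22 in lactation and 8.22 ± 0.16 in post-lactation arrays (SD, n = 3 each).

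Post-lactation signal of Slc20a2 was 2.99-fold that of virgin mice, a log2 difference of 1.58 (SE 0.27, 95% interval 0.98 to 2.18), with limma's adjusted p = 0.0613. That p ranked 35th among 18194 genes, and 5 genes, itself included, had an upward difference of that size or more. Within the sets the difference was 2.13, 1.82 and 0.78, all upward. With the set as a block adjusted p was 0.125, and without virgin 1 the difference was 1.36 (adjusted p = 0.181). Slc20a2 was called when genes below the low-signal limit were left out (adjusted p = 0.0372), when the variance was fitted with a trend (adjusted p = 0.042), and when virgin 3 was left out (1.88, adjusted p = 0.0114). Over all its alternatives adjusted p ran from 0.0114 to 0.757.

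Between post-lactation and lactation Slc20a2 was 1.99-fold higher, a log2 difference of 0.99 (SE 0.27, 95% interval 0.39 to 1.59), with adjusted p = 0.265, and 0.159 with the set block. The 3 sets gave 0.96, 0.95 and 1.06, so the step after weaning was of like size in each. Virgin 1 was the lowest of the 9 arrays for Slc20a2. Lactation exceeded virgin by 0.59 (SE 0.27, adjusted p = 1, and 0.712 with the block), made up of 1.17, 0.87 and -0.28 within the sets, and by 0.37 without virgin 1. The comparisons share arrays, so these values are not independent of each other. Cell type markers moved in the same comparisons: red cell markers fell after weaning, as given above, and the mean of 9 B lymphocyte markers was 1.32 to 3.14 above the array median in virgin, 2.14 to 2.93 in lactation and 3.44 to 4.18 in post-lactation arrays. Of these 9, all had a higher post-lactation mean in both comparisons and 0 passed without the block. With it 1 rose in post-lactation versus lactation and 0 in post-lactation versus virgin. Their part in the Slc20a2 values was not tested.

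The other Slc20a2 probe set gave no such difference. On 1451768_a_at the log2 signal was 6.02, 6.42 and 5.71 in virgin, 5.71, 6.42 and 6.24 in lactation and 6.11, 5.71 and 6.81 in post-lactation arrays. These groups overlapped, and 4 of the 9 pairs of arrays within sets had exactly equal values. The post-lactation minus virgin difference was 0.16 there, and averaging the 2 probe sets gave 0.87 (adjusted p = 0.757). The sequences that either probe set targets were not used here, so a choice between them was not tested.

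**Figure D1:**
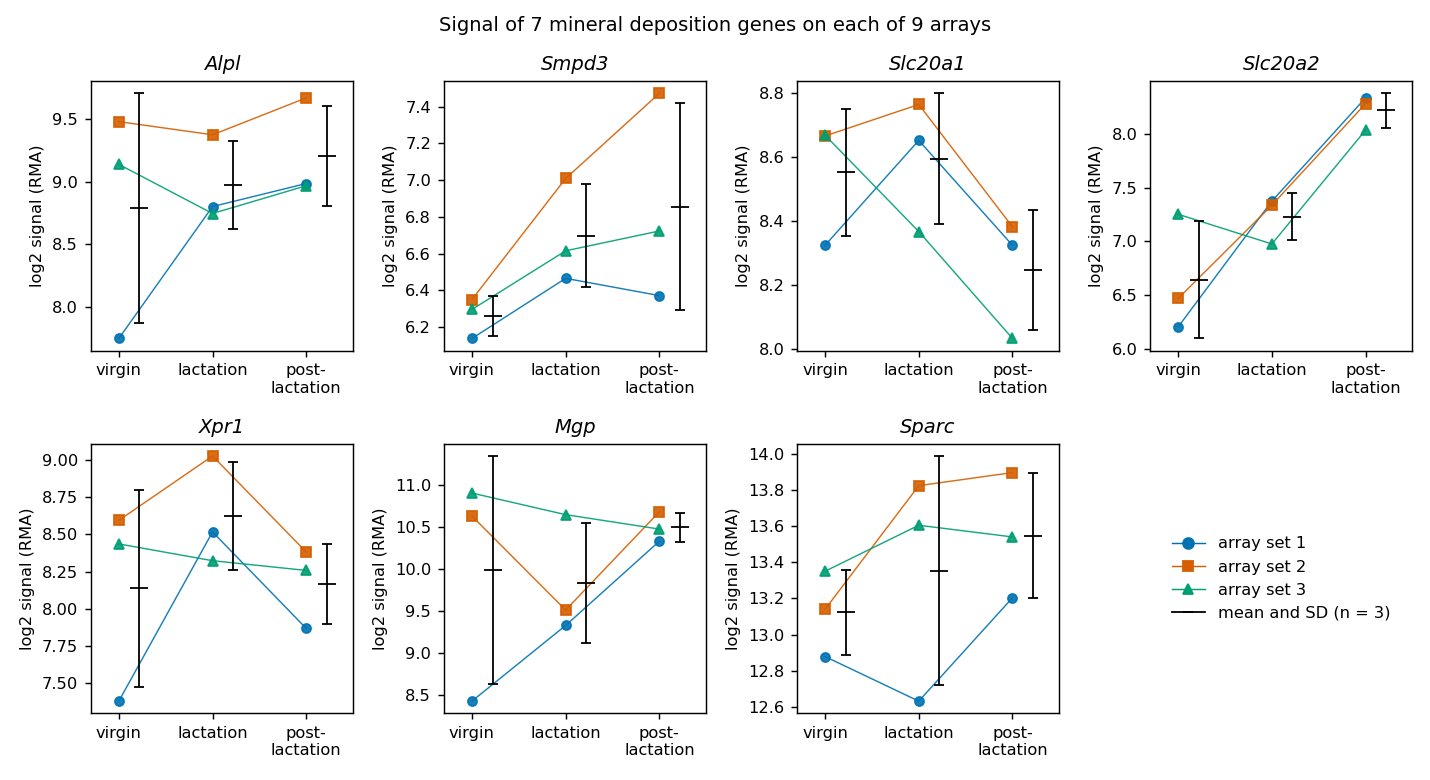
Log2 RMA signal (vertical axes, each with its own range) of the 7 measured genes on 9 arrays by group (horizontal axes). Coloured points joined by lines are the 3 arrays of an array set, and black bars are the group mean and SD with n = 3. In the Slc20a2 panel the post-lactation arrays, at 8.04 to 8.34, lie above all others, and virgin 1 is the lowest point for Alpl, Smpd3, Slc20a2, Xpr1 and Mgp.

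Slc20a1, the gene of the related importer PiT-1, had a lower signal after weaning than in lactation in each set, by a small amount. Its log2 signal on 1448568_a_at was 8.32, 8.67 and 8.67 in virgin, 8.37, 8.76 and 8.65 in lactation and 8.32, 8.03 and 8.38 in post-lactation arrays. The groups overlapped in every comparison. Post-lactation minus lactation was -0.35 (SE 0.21, 95% interval -0.81 to 0.11, adjusted p = 1), and -0.33, -0.38 and -0.33 within the sets. With the set as a block the unadjusted p was 0.0392 and adjusted p = 0.293. A dimmer probe set, 1438824_at, differed by -0.23 and was lower in 2 of the 3 sets, and the mean over the gene's 3 probe sets gave -0.22. Lactation minus virgin was 0.04 (95% interval -0.42 to 0.50, adjusted p = 0.954 with the block), with 0.33, 0.10 and -0.30 in the sets, and -0.07 without virgin 1. Post-lactation minus virgin was -0.31 (95% interval -0.77 to 0.16, adjusted p = 0.642 with the block), with 0.00, -0.28 and -0.63 in the sets, and -0.42 without virgin 1. The 0.00 came from exactly equal values on virgin 1 and post-lactation 1, and counts as neither sign.

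Subtracting the change of Slc20a1 from the change of Slc20a2 within each set gave 1.29, 1.33 and 1.39 log2 units for post-lactation minus lactation. For post-lactation minus virgin it gave 2.13, 2.10 and 1.42, and for lactation minus virgin 0.84, 0.77 and 0.02. The difference between the importers had one sign in all 3 sets. This pairing was chosen after the values were seen, has no test, and rests on the brighter Slc20a2 probe set.

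Xpr1, the gene of the phosphate exporter, was highest on average in lactation. On 1426992_at its log2 signal was 7.38, 8.59 and 8.44 in virgin, 8.32, 9.03 and 8.52 in lactation and 7.87, 8.26 and 8.38 in post-lactation arrays. Lactation overlapped with both other groups, and virgin 1 was the lowest array. Post-lactation minus lactation was -0.45 (SE 0.33, 95% interval -1.17 to 0.26, adjusted p = 1, and 0.416 with the set block), with -0.65, -0.64 and -0.07 in the sets. Lactation minus virgin was 0.49 (SE 0.33, 95% interval -0.23 to 1.20, adjusted p = 1, and 0.687 with the block), with 1.14, 0.43 and -0.11 in the sets, and 0.11 without virgin 1. Post-lactation minus virgin was 0.03, with 0.49, -0.21 and -0.18 in the sets (adjusted p = 0.978 with the block), and -0.35 without virgin 1.

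Xpr1 had 7 probe sets, which did not all run the same way. The next brightest was 1452271_at. It averaged 6.22 ± 0.19 in virgin, 6.65 ± 0.27 in lactation and 6.28 ± 0.12 in post-lactation arrays (SD, n = 3 each). Its signal was lower in post-lactation than in lactation arrays in 3 of 3 sets, with a mean difference of -0.37, and higher in lactation than in virgin arrays in 3 of 3 sets, with a mean difference of 0.44. Adjusted over all probe sets with the set block, p was 0.307 and 0.522. Virgin 1 was the lowest array here too, at 6.02, against 6.40 and 6.22 for virgin 2 and 3. The other 5, with means from 3.73 to 5.60, gave -0.02, 0.10, -0.39, -0.25 and 0.33 for post-lactation minus lactation, from the brightest to the dimmest. For lactation minus virgin they gave 0.06, 0.08, 0.36, 0.25 and -0.16. Averaging all 7 gave -0.15 and 0.22, both smaller than on the brightest probe set.

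Within sets, Slc20a1 and Xpr1 were both lower in post-lactation than in lactation arrays in 3 of 3 sets. In all, 2 of the 7 genes were lower in every set, against 16.1% of all genes, and 2 of the 7, Slc20a2 and Alpl, were higher in every set, against 12.8%. Exactly equal values within a set count as neither sign, and such ties lower both shares of all genes. The promoters of the pair that was lower are shown because these members ran the same way in every set and both have RefSeq windows. RefSeq (GRCm38.p6) gave windows for 6 of the 9 genes, from 250 bases before to 50 after a start site. Below, Slc20a1 is chr2:129198523-129198822 on the plus strand, the first of its 2 listed starts, and Xpr1 is chr1:155417395-155417694 on the minus strand.
Slc20a1: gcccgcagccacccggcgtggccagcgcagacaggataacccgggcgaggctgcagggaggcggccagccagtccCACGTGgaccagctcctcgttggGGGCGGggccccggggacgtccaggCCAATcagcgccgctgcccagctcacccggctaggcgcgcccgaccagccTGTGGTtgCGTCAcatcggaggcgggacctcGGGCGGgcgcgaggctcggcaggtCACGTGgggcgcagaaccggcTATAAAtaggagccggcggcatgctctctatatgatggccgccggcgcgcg
Xpr1: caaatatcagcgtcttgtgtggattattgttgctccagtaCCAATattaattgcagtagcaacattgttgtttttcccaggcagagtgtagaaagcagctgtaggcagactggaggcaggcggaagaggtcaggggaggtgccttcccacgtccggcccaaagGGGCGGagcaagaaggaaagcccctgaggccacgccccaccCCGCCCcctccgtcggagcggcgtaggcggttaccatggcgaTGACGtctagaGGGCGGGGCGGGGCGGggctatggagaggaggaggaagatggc
Capitals mark matches, on either strand, to 7 short motifs: the E-box CACGTG, the GC box GGGCGG, the TATA box TATAAA, the CCAAT box CCAAT, the CRE half-site TGACG, the RUNX motif TGTGGT and the GATA motif AGATAA. The Slc20a1 window held 8 matches with no overlap: 2 E-boxes, beginning at -175 and -22 relative to the start site, 2 GC boxes, and 1 each of the TATA, CCAAT, CRE and RUNX letters. The TATA letters began at -1, at the start site itself. The Xpr1 window held 7 matches, of which 5 were GC boxes, with 2 overlapping pairs, plus 1 CCAAT box and 1 CRE half-site. Both windows therefore held GC box, CCAAT and CRE letters, which occur in 35.6%, 37.4% and 20.8% of 32817 promoter windows. The E-box, found in Slc20a1 and not in Xpr1, occurs in 7.15%, the TATA box in 13.6%, the RUNX motif in 16.8% and the GATA motif, in neither, in 11.2%. The window of the second Slc20a1 start, not shown, held 1 GC box and 2 CRE half-sites. It had no E-box, TATA, CCAAT or RUNX letters, so what is said of these in Slc20a1 holds for the first start only. A match describes letters only, and binding was not measured.

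Alpl, the gene of tissue-nonspecific alkaline phosphatase, did not separate the groups. Its log2 signal on 1423611_at, its only probe set, was 7.75, 9.48 and 9.14 in virgin, 8.75, 9.38 and 8.80 in lactation and 8.99, 8.97 and 9.67 in post-lactation arrays. All 3 groups overlapped, and the lowest value was that of virgin 1, the array with the low osteocyte markers. Means were 8.79 ± 0.92 in virgin, 8.97 ± 0.35 in lactation and 9.21 ± 0.40 in post-lactation arrays (SD, n = 3 each).

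Lactation minus virgin was 0.19 for Alpl (SE 0.41, 95% interval -0.71 to 1.08, adjusted p = 1, and 0.881 with the block), and 1.05, -0.11 and -0.39 within the sets. The sign turned without virgin 1 (-0.34) and without lactation 2 (-0.02). Post-lactation minus virgin was 0.42 (95% interval -0.47 to 1.31, adjusted p = 0.737 with the block), made up of 1.24, 0.19 and -0.17, and -0.10 without virgin 1. Post-lactation minus lactation, which does not use virgin arrays, was 0.23 (SE 0.41, 95% interval -0.66 to 1.13, adjusted p = 1, and 0.742 with the block), and 0.18, 0.29 and 0.22 within the sets.

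Smpd3, the gene of neutral sphingomyelinase 2, was lowest in virgin mice. On 1438665_at its log2 signal was 6.14, 6.35 and 6.30 in virgin, 6.61, 7.01 and 6.47 in lactation and 6.37, 6.72 and 7.47 in post-lactation arrays. All lactation and all post-lactation arrays lay above all virgin arrays, post-lactation by a margin of only 6.37 against 6.35. Lactation exceeded virgin by 0.44 (1.35-fold, SE 0.28, 95% interval -0.18 to 1.05), with adjusted p = 1, and 0.57 with the set block. Within the sets that was 0.33, 0.66 and 0.32, and without virgin 1, the lowest of the 9 arrays for Smpd3, it was 0.37. Post-lactation exceeded virgin by 0.59 (1.51-fold, SE 0.28, 95% interval -0.02 to 1.21, adjusted p = 1), or 0.23, 1.12 and 0.43 in the sets, and 0.53 without virgin 1. With the block the unadjusted p was 0.0108 and adjusted p = 0.354. Post-lactation minus lactation was 0.16 (95% interval -0.46 to 0.78, adjusted p = 0.693 with the block), with -0.09, 0.46 and 0.11 in the sets.

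Groups that did not overlap were thus seen for Smpd3 in lactation versus virgin, 1 of 7 higher against 2.06% of all genes. For post-lactation versus lactation it was Slc20a2 alone of the 7, against 3.26% of all genes, and for post-lactation versus virgin Slc20a2 and Smpd3, 2 of 7 against 1.17%. No member was lower without overlap in any comparison, where 0.698%, 4.38% and 1.49% of all genes were. Exactly equal values within a set also make groups overlap, which lowers these shares of all genes. The 2 dimmer Smpd3 probe sets, with means of 4.95 and 4.62 near the low-signal limit, gave -0.09 and 0.01 for lactation minus virgin and -0.06 and 0.10 for post-lactation minus virgin. Averaging its 3 probe sets gave 0.12 and 0.21.

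**Figure D2:**
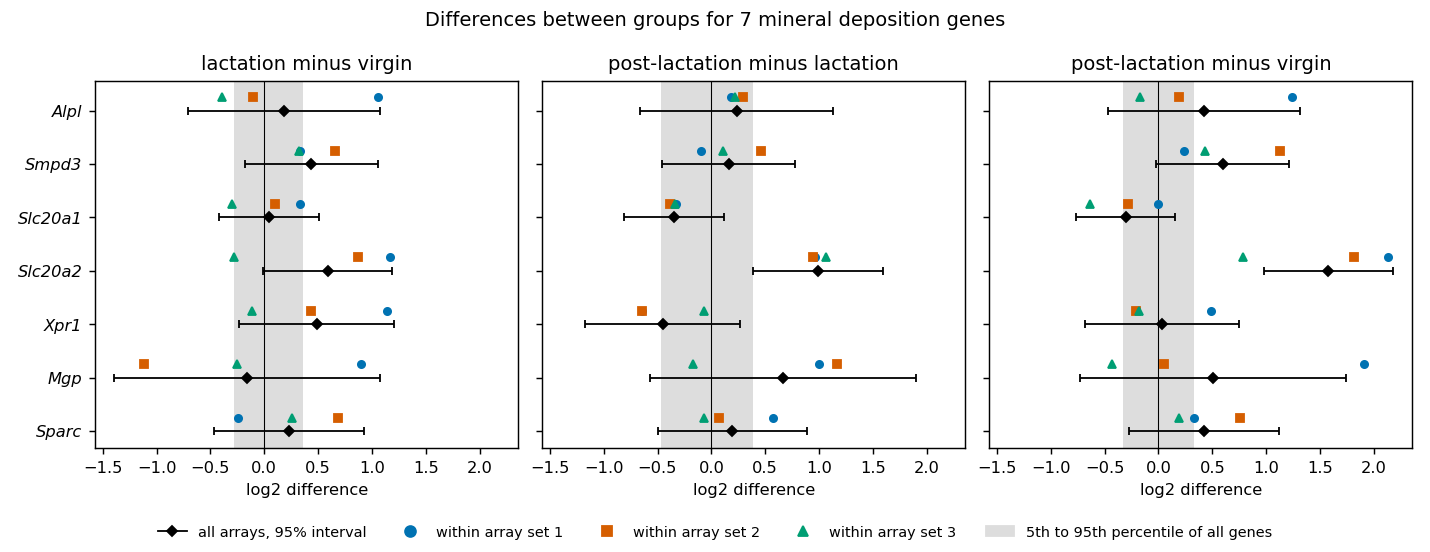
Log2 differences (horizontal axes) of the 7 genes in the 3 comparisons. Diamonds with bars are the fit over all 9 arrays with its 95% interval, coloured points the difference within each array set, and the grey band the 5th to 95th percentile of all genes. Only the Slc20a2 intervals against lactation (0.39 to 1.59) and against virgin (0.98 to 2.18) leave out 0 for post-lactation.

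Mgp, the gene of matrix Gla protein, a vitamin K dependent inhibitor of calcification, varied most among virgin arrays. On 1448416_at its log2 signal was 8.43, 10.63 and 10.90 in virgin, 10.65, 9.51 and 9.33 in lactation and 10.33, 10.47 and 10.68 in post-lactation arrays. The groups overlapped in each comparison. The SD was 1.36 in virgin, 0.71 in lactation and 0.18 in post-lactation arrays.

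Post-lactation minus lactation was 0.67 for Mgp (1.59-fold, SE 0.56, 95% interval -0.57 to 1.90, adjusted p = 1, and 0.575 with the block), or 1.00, 1.17 and -0.17 in the sets. Lactation minus virgin was -0.16 (SE 0.56, adjusted p = 0.949 with the block), with 0.90, -1.12 and -0.26 in the sets, and -0.94 without virgin 1. Post-lactation minus virgin was 0.51 (adjusted p = 0.768 with the block), with 1.90, 0.05 and -0.43 in the sets, and -0.27 without virgin 1. Smooth muscle cells and chondrocytes are known sources of Mgp. Vascular smooth muscle markers, 8 of 10 above the low-signal limit, averaged 1.69 to 2.53 above the array median in virgin, 2.11 to 2.77 in lactation and 2.38 to 2.94 in post-lactation arrays, with virgin 1 the lowest. Chondrocyte markers, 3 of 10 above the limit, averaged 0.07 to 1.17, 0.23 to 0.46 and 0.09 to 0.80 in the same order. Their part in the Mgp values was not tested.

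Sparc gave high signals on all arrays and did not separate the groups. On 1416589_at its log2 signal was 12.88, 13.14 and 13.35 in virgin, 13.60, 13.82 and 12.63 in lactation and 13.20, 13.54 and 13.90 in post-lactation arrays. The groups overlapped, and lactation 3 was the lowest array. Post-lactation exceeded virgin by 0.42 (1.34-fold, SE 0.32, 95% interval -0.27 to 1.12, adjusted p = 1, and 0.634 with the block), or 0.33, 0.76 and 0.19 in the sets, and by 0.30 without virgin 1. Lactation minus virgin was 0.23 (SE 0.32, adjusted p = 0.796 with the block), with -0.25, 0.68 and 0.25 in the sets, and 0.11 without virgin 1. Post-lactation minus lactation was 0.19 (adjusted p = 0.662 with the block), with 0.57, 0.07 and -0.06. A second bright probe set, 1448392_at, averaged 12.35 in virgin, 12.77 in lactation and 12.84 in post-lactation arrays. There, lactation and post-lactation were each above virgin in 3 of 3 sets, by 0.41 and 0.48, with adjusted p = 0.4 and 0.292 over all probe sets with the block. On that probe set virgin 1 was the lowest array, at 11.96, against 12.47 and 12.64 for virgin 2 and 3.

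Signs held in all 3 sets for 1 of the 7 genes in lactation versus virgin (Smpd3, higher, where 10.4% of all genes were higher in every set). For post-lactation versus virgin it was 3 of 7, namely Slc20a2, Smpd3 and Sparc, all higher, where 5.91% of all genes were. None of the 7 was lower in every set in either comparison, where 6.11% and 8.15% of all genes were. As above, exactly equal values lower these shares of all genes. Of the brightest probe sets of the 7, only that of Slc20a1 had an equal pair within a set. The shares are therefore not a like background for the 7.

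**Figure D3:**
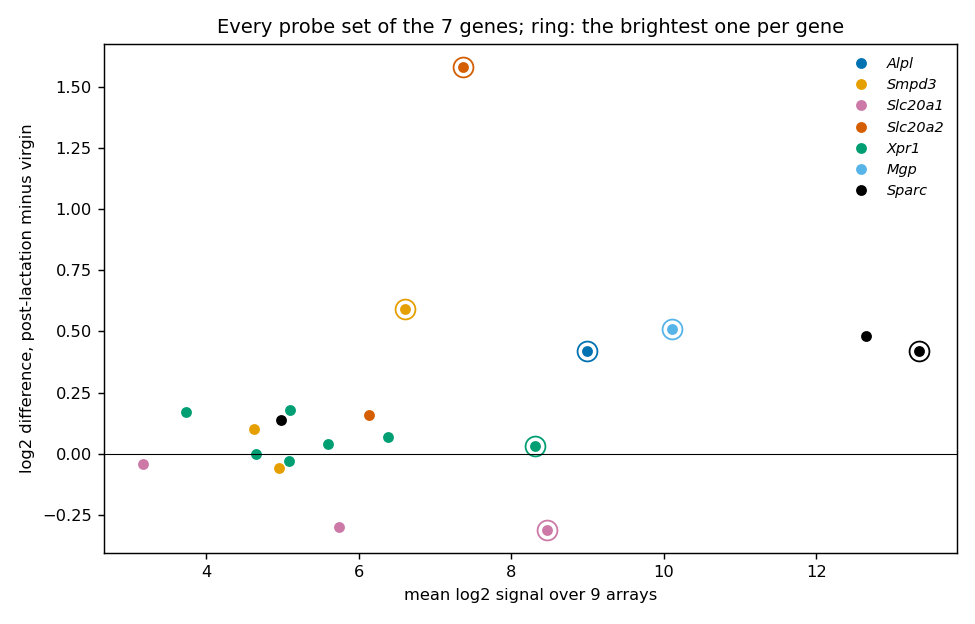
Post-lactation minus virgin log2 difference (vertical axis) of every probe set of the 7 genes against its mean log2 signal over 9 arrays (horizontal axis). Rings mark the brightest probe set of each gene. The Slc20a2 probe sets stand at 1.58 and 0.16, and the 2 bright Sparc probe sets at 0.42 and 0.48.

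Other genes of mineral and phosphate handling were followed in 8 lists, which held 82 measured genes besides the 7. By limma without a block 0 of the 82 passed in any comparison. With the set block 0 passed in lactation versus virgin. In post-lactation versus lactation 2 fell and 0 rose, 2.44% of the 82 beside 3.53% of all genes. In post-lactation versus virgin 1 fell and 0 rose, 1.22% of the 82 beside 0.451% of all genes. In the block fit without virgin 1, chosen after seeing the data, 4 fell (Nqo1, Pcyt1b, Ank and Pcyt1a) and 1 rose (S100a4) in post-lactation versus lactation, and 0 passed in post-lactation versus virgin or lactation versus virgin. Of all 18194 genes that fit called 927, 4 and 0 in the same order. List medians lay between -0.33 and 0.23 in the 3 comparisons, both extremes being the vitamin K list. The median log2 difference of the 82 was 0.02, 0.03 and 0.03 in these comparisons, beside 0.01, 0.00 and 0.00 for all genes.

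The gene that fell in both was Nqo1, a quinone reductase able to reduce vitamin K. Its log2 signal was 5.32, 5.79 and 5.06 in virgin, 5.37, 6.0 and 5.70 in lactation and 4.51, 4.20 and 4.75 in post-lactation arrays. Post-lactation arrays were the lowest 3 and lay below the low-signal limit. The difference was -1.20 against lactation (SE 0.26, adjusted p = 0.0834, and 0.00121 with the block) and -0.90 against virgin (adjusted p = 0.879, and 0.0184 with the block). The other was Pcyt1b, which encodes an enzyme of phosphatidylcholine synthesis, at 3.81 ± 0.89 in post-lactation and 5.14 ± 0.50 in lactation arrays (SD, n = 3 each). It differed by -1.32 (adjusted p = 0.595, and 0.0214 with the block), and its virgin and post-lactation means lay below the limit. Without set 1 the differences against lactation were -1.21 for Nqo1 and -1.61 for Pcyt1b, and -0.95 for Nqo1 against virgin. In the block fit without virgin 1 adjusted p was 0.00545 and 0.0447 against lactation, and 0.0823 for Nqo1 against virgin. Red cell markers fell in the same comparisons, as given above, and their part in these values was not tested.

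Among genes of pyrophosphate supply, 10 measured, 0 were called by either fit. Ank, whose product carries ATP or pyrophosphate out of cells, had a log2 signal of 7.81, 9.39 and 9.43 in virgin, 9.93, 9.93 and 8.81 in lactation and 8.19, 8.65 and 9.12 in post-lactation arrays. In every set the lactation array was the highest. Lactation minus virgin was 0.68 (SE 0.46), with 1.00, 0.54 and 0.50 in the sets (adjusted p = 1, and 0.385 with the block), and 0.15 without virgin 1. Post-lactation minus lactation was -0.90 (SE 0.46), with -0.62, -0.81 and -1.28 (adjusted p = 1, and 0.0818 with the block). It was called in the block fit without virgin 1 (adjusted p = 0.0441). Ppa1, a cytosolic pyrophosphatase, differed by 0.11 and -0.16 in the same comparisons.

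In the remaining lists the brightest genes were not called. In phosphate transport and XPR1 regulation, 15 genes with 0 called, the mitochondrial phosphate carrier gene Slc25a3 differed by 0.08 in lactation versus virgin and -0.15 in post-lactation versus lactation. Kidins220, which encodes a membrane scaffold, differed by 0.16 and -0.13. In sphingomyelin and phosphocholine metabolism, with 15 genes, the sphingomyelin synthase gene Sgms2 differed by -0.02 and -0.02, and the acid ceramidase gene Asah1 by -0.05 and -0.03. Among alkaline phosphatase relatives and zinc supply, 8 genes with 0 called, the zinc transporter genes Slc39a14 and Slc30a5 differed by 0.21 and -0.03 in lactation versus virgin. Most of the Slc39a14 difference lay in set 1, the set of virgin 1, with 7.65 in lactation against 7.08. In set 2 it was 8.47 against 8.42, and in set 3 8.49 in both.

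Of 10 annexin and calcium-binding genes 0 were called. Anxa1 differed by -0.42 in lactation versus virgin and 0.51 in post-lactation versus lactation, and Anxa2 by -0.18 and 0.19, with no change of sign between the sets, and adjusted p was 0.971 or more without the block. Of 7 vitamin K genes Nqo1 alone was called. Vkorc1, the vitamin K epoxide reductase subunit, differed by 0.50 and -0.36, and Gas6, a ligand carrying Gla residues, by -0.06 and 0.58. Of 7 SPARC family genes 0 were called, with Fstl1 at 0.20 and 0.67 and Sparcl1 at -0.19 and 0.11. Of 10 mineral-binding matrix genes 0 were called, with Dmp1 at 0.44 and 0.04 and Mepe at 0.77 and -0.27. The Mepe and Dmp1 differences against virgin within set 1, the set of virgin 1, were 3.04 and 1.34. Without virgin 1 the lactation minus virgin differences were -0.47 for Mepe and -0.20 for Dmp1. Both keep lactation 3 of set 1, the lowest lactation array for these genes (12.57 and 13.24). Within sets 2 and 3 Dmp1 was at 13.87 in lactation against 13.82 in virgin, and at 13.83 against 13.88. Mepe was at 12.99 against 13.25, and at 12.72 against 13.20.

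**Figure D4:**
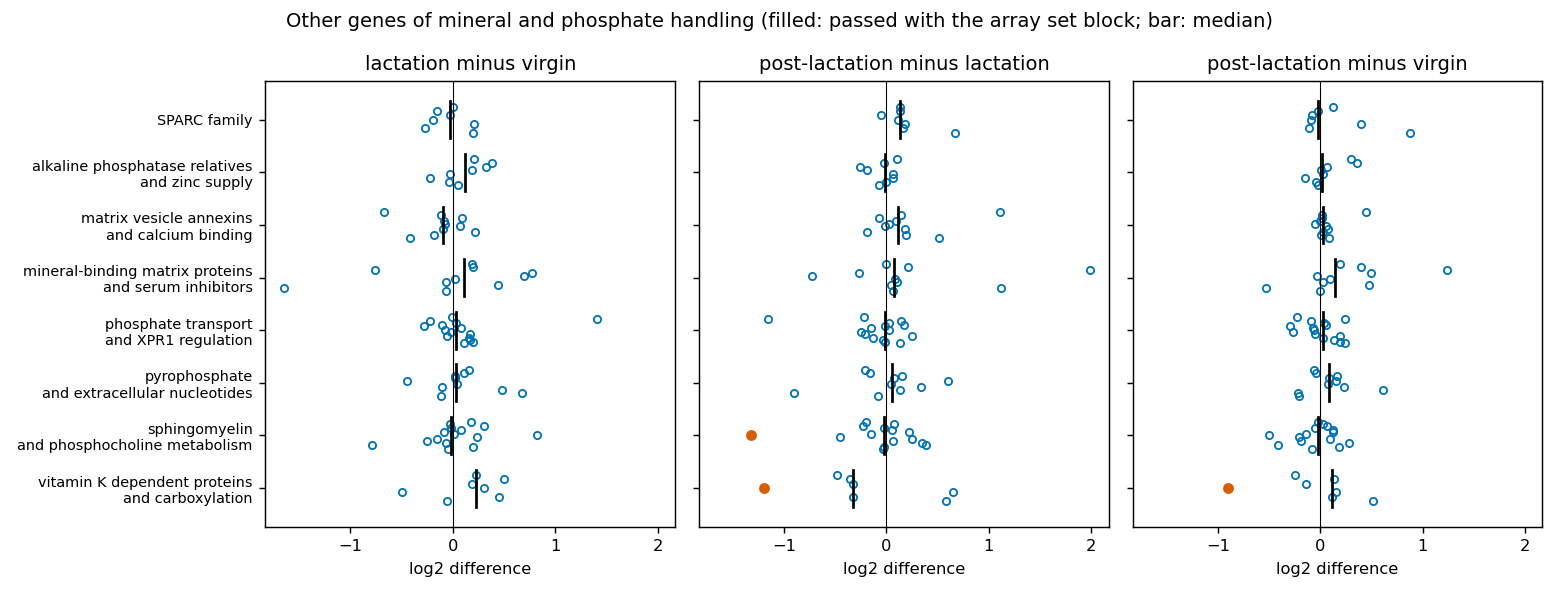
Log2 differences (horizontal axes) of 82 other genes in 8 lists (vertical axis) for the 3 comparisons. Open points did not pass with the array set block, filled points did, and black bars are list medians. Filled points are Pcyt1b at -1.32 and Nqo1 at -1.20 in post-lactation minus lactation, and Nqo1 at -0.90 in post-lactation minus virgin.

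The genes with the most similar profiles were sought among 10916 genes above the low-signal limit, by Pearson correlation over 9 arrays after centring within sets. For Slc20a2 they were Basp1 (0.98), Col6a2 (0.98) and Col8a1 (0.97), the last pair being collagen chains, and without centring the values were 0.59, 0.97 and 0.91. For Alpl they were Smad6, Spry4 and Cxxc5 at 0.99 each, and for Xpr1 Samd14, Hs2st1 and Arhgap21 at 0.99 each. Mgp was nearest to Btg2 (0.99), Igfbp7 (0.98) and Mia3 (0.98), Smpd3 to Patl1 (0.98), Cpz (0.96) and Nudt18 (0.95), Slc20a1 to Col25a1 (0.96), Pwp2 (0.96) and Tm2d3 (0.95), and Sparc to Chpt1 (0.97), Mbp (0.96) and Wdr53 (0.95). These are the highest values out of many genes over few arrays that share sets, and they were not recomputed without virgin 1.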

How the data were processed

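Biotin-labelled RNA from 9 samples was measured on Affymetrix mouse arrays. The deposited values are log2 signals for 45101 probe sets, made with RMA according to the submitters' processing notes and deposited by the authors. The design text names GenePattern and Bioconductor. Their versions, the annotation and any filter were not given in the sources used here. Values ran from 1.55 to 14.9 with none missing, and no log was taken again. No label groups the arrays further. The 3 sets were inferred from exact ties, which separate RMA runs could leave, a step that no source used here records. Pairs inside sets 2 and 3 tied at 36.1% to 44.1% of probe sets, pairs inside set 1 at 2.50% to 2.72%, and pairs from different sets at 2 probe sets or fewer. Why set 1 ties less was not tested. In such ties a within-set difference is exactly 0.

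The supplied annotation gave 34958 probe sets 1 gene, 932 several and 9211 none. The brightest of each gene's probe sets was used, a choice that mattered for 9012 genes. Genes were compared with limma 3.58.1 in R 4.3.3 (lmFit, eBayes without a trend, 3 group means, 9 arrays, 6 residual degrees of freedom, 4 with the set block), with Benjamini-Hochberg adjustment over 18194 genes. The fitting code was also run on simulated data with independent normal noise. Those data held no exact ties and no outlying array, so that run does not test the fit for either. The members, lists and rules were chosen with earlier results of these data known. Named were the 7 genes in every comparison, for each list and comparison the genes called by either fit (where none was, the 2 brightest of the list), the 3 most similar genes per member, and single markers. Pathway lists matched 82 of 89 names, including Ank through its synonym, and 13 cell type lists matched 121 of 130.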

Additional observations from a re-analysis of the deposited data

How the results depend on the processing

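Of the 7 genes 0 were called in lactation versus virgin and in post-lactation versus lactation under every alternative run, and 1 (Slc20a2) in post-lactation versus virgin with a low-signal filter and with a variance trend. Leaving out 1 array gave 0 to 1 there, 0 to 0 elsewhere. Over all genes, called counts were 0, 129 and 32 in lactation versus virgin, post-lactation versus lactation and post-lactation versus virgin. The array set block gave 4, 642 and 82, this block without set 1 gave 0, 0 and 0 (1827, 2567 and 1604 at an unadjusted p under 0.05, with 2 residual degrees of freedom, where not even red cell markers were called), and 2 settings chosen after seeing the data gave 0, 927 and 4 (block without virgin 1) and 4, 631 and 92 (block with arrays centred on their medians). Centring alone gave 1 and quantile normalization gave 1 in lactation versus virgin, and quantile normalization 205 in post-lactation versus lactation. Leaving out 1 array gave 0 to 0, 76 to 138 and 13 to 34. The count moved by over 1.5 times without lactation 2 (76) or post-lactation 2 (80) in post-lactation versus lactation, and without virgin 1 (21), post-lactation 1 (13), 2 (13) or 3 (16) in post-lactation versus virgin. Title replicate numbers did not pair the arrays: deviations of same-numbered arrays correlated from -0.41 to 0.67, those of arrays in one set from 0.47 to 0.73. The replicate block gave 0, 118 and 33 called genes and 0 members.

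Signs of some small differences turned without virgin 1 or its set, and others turned without another array. In lactation versus virgin the block without set 1, and the block without virgin 1, gave -0.25 and -0.24 for Alpl and -0.10 and -0.11 for Slc20a1. In post-lactation versus virgin they gave -0.20 and -0.24 for Xpr1, -0.19 and -0.11 for Mgp, and for Alpl the block without virgin 1 gave 0.00. Leaving out 1 array at a time, lactation versus virgin ran from -0.34 to 0.53 for Alpl, -0.07 to 0.15 for Slc20a1, -0.94 to 0.30 for Mgp and 0.00 to 0.59 for Sparc. Post-lactation versus lactation ran from -0.15 to 0.40 for Smpd3 and -0.17 to 0.43 for Sparc, and post-lactation versus virgin from -0.10 to 0.77 for Alpl, -0.35 to 0.26 for Xpr1 and -0.27 to 0.97 for Mgp. Slc20a2 ran from 1.36 to 1.88 there. For Mgp in lactation versus virgin the sign held without virgin 1 (-0.94). It turned without virgin 2 (0.16), virgin 3 (0.30) or lactation 3 (0.09). In post-lactation versus lactation, Smpd3 turned without post-lactation 3 (-0.15) and Sparc without lactation 3 (-0.17). Signals near the low-signal limit of 4.87 carry little information on change. The cause of these turns was not tested beyond the arrays named.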

Other observations

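Within the lists of mineral and phosphate handling, 3 genes outside the naming rule stood out by their values and were chosen after these were seen. Omd, which encodes the mineral-binding proteoglycan osteomodulin, had a log2 signal of 8.43, 8.09 and 9.72 in post-lactation arrays, against 6.73, 7.44 and 6.08 in lactation arrays. Those groups did not overlap, the fold was 3.99, and the sets gave 2.35, 2.28 and 1.36 (limma adjusted p = 0.194, and 0.0816 with the array set block). Virgin arrays were at 6.66, 7.49 and 8.37 and overlapped with both. S100a4, a calcium-binding protein gene, was at 10.49, 10.22 and 11.11 in post-lactation arrays, against 9.29, 9.80 and 9.40 in lactation arrays, 2.16-fold higher (adjusted p = 0.181, 0.056 with the block, and 0.031 with the block and without virgin 1). Virgin arrays were at 10.57, 10.01 and 9.90, overlapping with post-lactation, and lactation minus virgin was -1.17, -0.21 and -0.62 within the sets.

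Slc37a2, which encodes a sugar-phosphate and phosphate exchanger, had a log2 signal of 7.27, 8.11 and 7.34 in lactation arrays, against 5.69, 6.26 and 6.55 in virgin arrays, 2.65-fold higher (limma adjusted p = 1, and 0.133 with the block). The log2 difference was 1.41, and 1.17 without virgin 1. It was at 5.84, 6.32 and 7.08 in post-lactation arrays, below lactation by 1.51, 1.03 and 0.95 within the sets. Osteoclast markers differed in the same comparisons: the mean of 10, of which 8 lay above the low-signal limit, was 3.18 to 3.57 above the array median in lactation arrays, against 2.27 to 2.39 in virgin arrays, and 2.29 to 2.86 in post-lactation arrays. None of the 10 was called without the block, and with it 1 rose in lactation versus virgin and 5 fell in post-lactation versus lactation. Their part in the Slc37a2 values was not tested.

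The remaining cell type lists are given as means above the array median. Osteoblast markers averaged 5.60 to 6.21 in virgin, 6.19 to 6.52 in lactation and 6.04 to 6.44 in post-lactation arrays, endothelial markers 2.59 to 2.86, 2.68 to 2.90 and 2.71 to 3.25, and neutrophil markers 7.74 to 8.57, 7.65 to 8.25 and 8.09 to 8.31 in that order. Macrophage markers averaged 2.84 to 3.16, 3.05 to 3.50 and 2.85 to 3.49, adipocyte and stromal markers 4.76 to 4.79, 4.51 to 4.89 and 4.73 to 5.66, and periosteum and tendon markers 0.85 to 2.57, 1.29 to 1.54 and 1.5 to 1.63. Skeletal muscle markers lay below the median on every array, from -0.44 to -0.20. The osteoclast fusion gene Dcstamp had a log2 signal of 7.01 to 8.02 on lactation arrays, against 5.70 to 6.43 on virgin arrays, and 5.61 to 6.89 on post-lactation arrays.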
